A study of Mus musculus with 2 samples.

Results

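The collagen chains of the mouse heart were described here as the genes whose symbol is Col, a number, the letter a and a number. The matrices list 44 such symbols among 22441 genes. Of these, 41 had at least 1 UMI (unique molecular identifier, a tag that counts each captured RNA molecule once) in either library, and 39 had one in each library. Col2a1, Col6a4 and Col19a1 had none. The 41 members hold 10 fibrillar chains, 8 basement membrane chains and 23 others.

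Hearts came from AC8 overexpressing C57/B6 mice and from wild-type C57/B6 littermates, neither of them treated. AC8 (adenylyl cyclase type 8) produces the messenger cyclic AMP, and the series title states that the overexpression is specific to cardiomyocytes. The promoter of the transgene, the age of the mice and the number pooled per genotype are not given in the sources used here. Sorted leukocytes (CD45+ CD31-), mesenchymal cells (CD45- CD31-) and endothelial cells (CD45- CD31+) were mixed in equal numbers and gave 1 droplet library per genotype. Cardiomyocytes, to which the title assigns the overexpression, were not a sorted fraction of their own. Adcy8, the gene for AC8, had 1 UMI in the AC8 library and 0 in the wild-type library, too few to check the labels. With 1 library per genotype no difference below has a replicate check. Intervals are exact 95% intervals that cover counting error only.

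Collagens are triple helices of 3 chains that are built in the endoplasmic reticulum and assembled outside the cell. Fibrillar chains such as those of types I, III and V form the cross-banded fibres of the cardiac interstitium, which fibroblasts make. Type IV chains form the sheet-like network of basement membranes around vessels and muscle cells, and the multiplexins, types XV and XVIII, link that membrane to the matrix beside it. Other members include type VI, which forms beaded filaments, and chains such as type XIV that sit on the surface of fibrils.

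Several type IV genes lie head to head and share a promoter region, which is shown because their RNAs are compared as pairs below. Col4a1 (chromosome 8, 11198423 to 11312826, minus strand) and Col4a2 (11312805 to 11449287, plus strand) start 21 bases apart in GENCODE vM21 on GRCm38, so that their first exons overlap by 22 bases. The stretch around the overlap, chr8:11312801-11312830 on the plus strand, has the overlapping bases in capitals. Col4a3 and Col4a4 on chromosome 1 start 72 bases apart and do not overlap; the 71 bases between them are chr1:82586850-82586920, read on the minus strand towards Col4a4. Col4a5 and Col4a6 on chromosome X start 1309 bases apart. For contrast, the 250 bases before the start of Col3a1, the chain with the highest level, are chr1:45311288-45311537 on the plus strand, with a TATAAA in capitals. Those before Col15a1, the abundant chain with the lowest AC8 to wild-type ratio, are chr4:47207762-47208011 on the plus strand. This window ends at the RefSeq start of Col15a1, which lies upstream of its GENCODE start at 47208161. All are from RefSeq on GRCm38.p6.
Col4a1 and Col4a2: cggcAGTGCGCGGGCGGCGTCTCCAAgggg
Col4a3 and Col4a4: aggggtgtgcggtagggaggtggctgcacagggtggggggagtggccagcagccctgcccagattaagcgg
Col3a1: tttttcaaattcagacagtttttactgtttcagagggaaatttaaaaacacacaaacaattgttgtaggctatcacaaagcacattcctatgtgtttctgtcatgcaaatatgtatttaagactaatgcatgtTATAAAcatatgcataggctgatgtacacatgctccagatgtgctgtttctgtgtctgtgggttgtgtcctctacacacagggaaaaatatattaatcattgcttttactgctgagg
Col15a1: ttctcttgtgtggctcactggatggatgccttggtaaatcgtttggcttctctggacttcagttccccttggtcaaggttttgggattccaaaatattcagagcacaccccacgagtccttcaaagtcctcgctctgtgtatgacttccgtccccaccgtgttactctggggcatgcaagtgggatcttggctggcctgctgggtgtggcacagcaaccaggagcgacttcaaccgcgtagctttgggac

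Promoters of 33 members were in the RefSeq table. On either strand of the 250 bases before the start, TATAAA was found in 5 of the 33 and in 12.4% of all 32851 promoters, CCAAT in 11 and 33.8%, and GGGCGG in 20 and 32.7%. Col4a1 and Col4a2 both held CCAAT. These matches describe letters in a window and not bound sites.

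The AC8 library held 4867 cells and 11076564 UMIs, and the wild-type library 5800 cells and 9664932 UMIs. After filters, 3578 AC8 and 3546 wild-type cells were clustered with the collagens left out of the clustering genes, and each cluster was named from markers that hold no collagen. The deposited cell barcodes are running numbers, so barcodes shared by the libraries could not be counted. Fibroblast-like cells numbered 1547 in AC8 and 1899 in wild type, endothelial-like cells 567 and 600, mural-like cells (pericytes and smooth muscle) 78 and 81, and macrophage-like cells 735 and 597. AC8 cells had a higher median of UMIs per cell in each of these 4 classes, with 2747 UMIs per AC8 fibroblast-like cell and 2157 per wild-type one. UMIs were summed per class and library and scaled to 1000000 UMIs of the class (CPM, the unit of all levels below). A gene was compared where it had at least 30 UMIs in the class over both libraries, and it is called higher or lower past 1.5-fold on a scale with 10 CPM added.

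Among the compared classes, fibroblast-like cells had the highest summed fibrillar level in both libraries, and endothelial-like cells the highest summed type IV level, which is made up mostly of Col4a1 and Col4a2. In UMIs, fibroblast-like cells held more of both, with 4733 type IV UMIs in AC8 and 6018 in wild type against 1926 and 2390 in endothelial-like cells. All collagens together made up 10970 CPM of AC8 fibroblast-like UMIs (1.10% of them) and 12260 CPM of wild-type ones (1.23%). Fibrillar chains were 62.3% (61.9 to 62.7) of these collagen UMIs in AC8 and 56.8% (56.4 to 57.2) in wild type. In endothelial-like cells, by contrast, basement membrane chains were 89.8% (88.4 to 91.0) of collagen UMIs in AC8 and 90.2% (89.1 to 91.3) in wild type. Mural-like cells lay between, with 59.6% (54.2 to 64.9) in AC8 and 52.5% (47.8 to 57.1) in wild type. The summed type IV level in endothelial-like cells was 2167 CPM in AC8 and 2717 CPM in wild type, against 1064 and 1384 CPM in fibroblast-like cells. The endothelial level thus stood above the fibroblast level by a log2 ratio of 1.03 (0.95 to 1.10) in AC8 and 0.97 (0.90 to 1.04) in wild type.

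**Figure D1:**
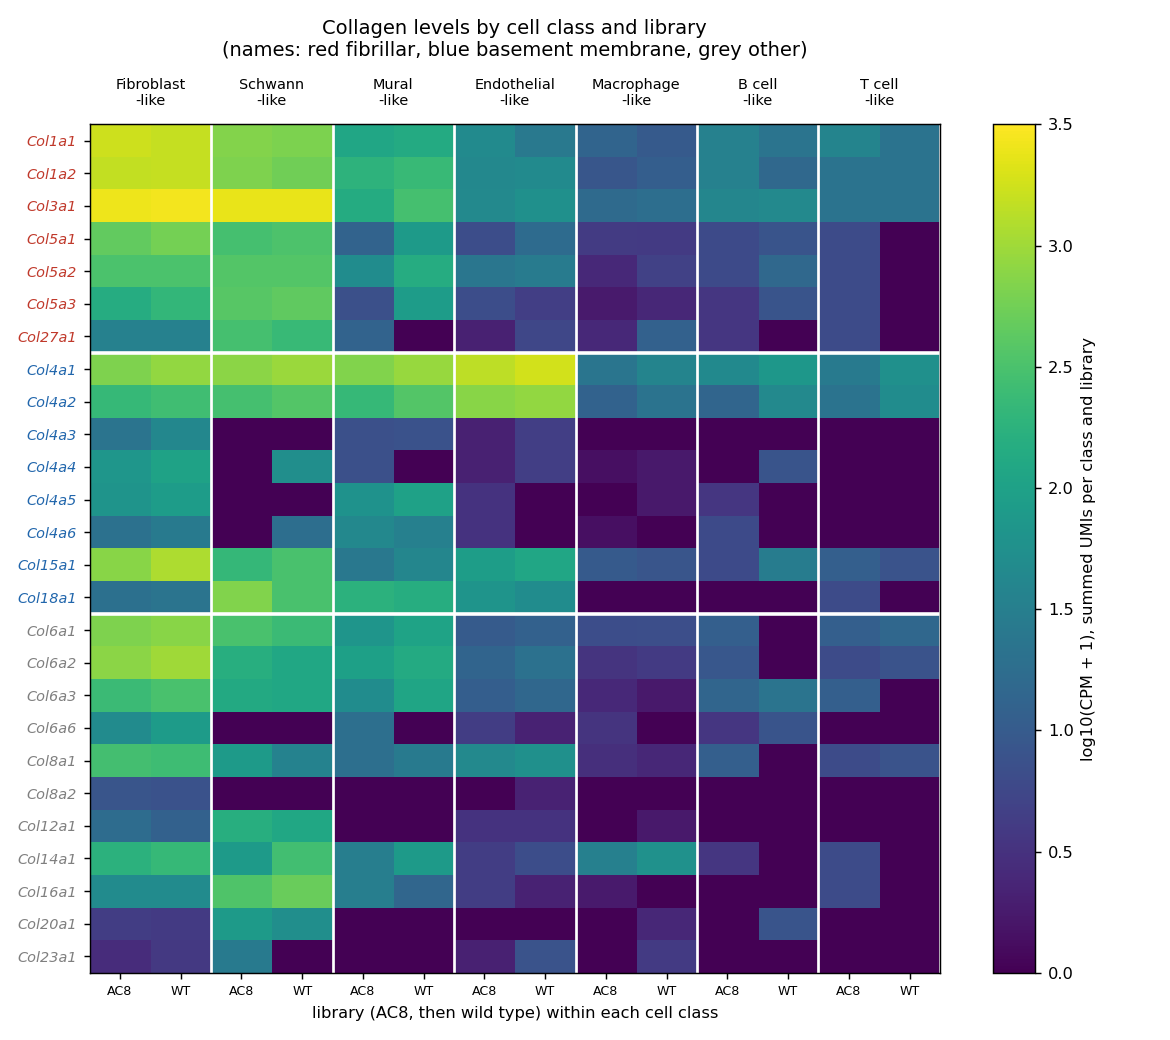
Level of the 26 collagen genes with at least 30 UMIs among the kept cells, by cell class and library (colour: log10 of CPM + 1, AC8 left of wild type in each class; gene names red for fibrillar, blue for basement membrane, grey for other). Fibrillar rows are brightest in fibroblast-like and Schwann-like cells, while Col4a1 and Col4a2 are brightest in endothelial-like cells.

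Different genes are set side by side here per kilobase of exon, and this division moves their order. On this scale Col3a1, the single chain of type III, and Col1a1, a chain of type I, led in fibroblast-like cells. Col3a1 stood at 266 CPM per kb in AC8 and 275 in wild type, and Col1a1 at 263 in AC8 and 238 in wild type. Next in AC8 were Col6a1 (152), Col1a2 (123), Col15a1 (119), Col6a2 (94.8) and Col4a1 (90.1). The wild-type order differed, with Col15a1 (185 CPM per kb) ahead of Col6a1 (174). In endothelial-like cells Col4a1 led with 188 CPM per kb in AC8 and 248 in wild type, followed by Col4a2 with 114 in AC8 and 130 in wild type. The annotated exon length adds up all transcript forms and a 3′ end assay need not scale with it, so this order is a description.

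Among fibroblast-like cells, 24 of the 41 members had enough UMIs to compare. The other 17 had between 1 UMI (Col9a1, Col10a1, Col17a1 and Col24a1) and 51 UMIs (Col20a1) in both libraries before filtering. Of the 24, none was called higher and 3 were called lower, against 0.811% of all 10610 genes higher and 2.88% lower. The ratio was below 1 for 19 of the 24, against 57.1% of all genes. The median log2 ratio was -0.28 over the 24 members and -0.05 over all genes. Per cell, collagens made up a median of 0.919% of the UMIs of AC8 and 1.09% of those of wild-type fibroblast-like cells, with quartiles of 0.663% and 1.31% in AC8 and of 0.792% and 1.51% in wild type.

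**Figure D2:**
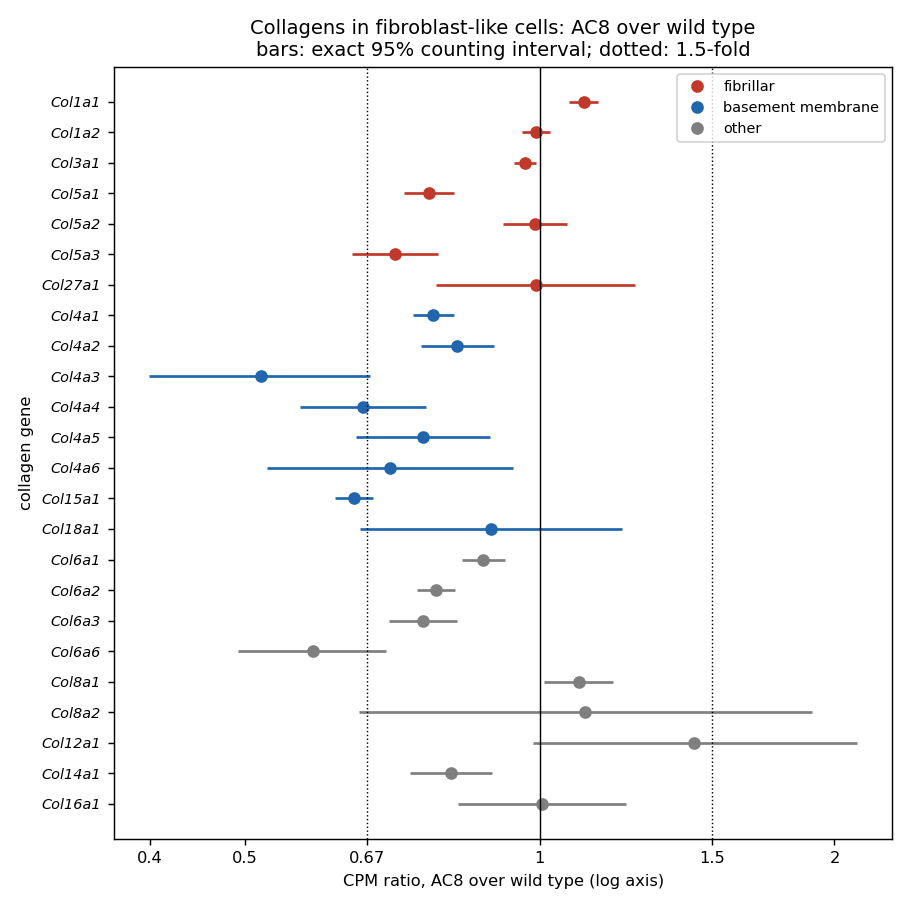
Ratio of CPM in AC8 over wild-type fibroblast-like cells for the 24 compared collagens (points; bars, exact 95% counting interval; log axis; solid line 1, dotted lines 1.5-fold; red fibrillar, blue basement membrane, grey other). All 8 basement membrane points lie below 1, while Col1a1 lies at 1.11; Col4a4 touches the dotted line here but is not called once 10 CPM is added to both levels.

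The fibrillar chains of fibroblast-like cells kept close levels between the libraries for types I and III and had ratios below 1, within 1.5-fold, for 2 chains of type V. Col1a1 stood at 1728 CPM in AC8 and 1558 CPM in wild type, a ratio of 1.11 (1.07 to 1.15). Its partner Col1a2 stood at 1531 CPM in AC8 and 1543 CPM in wild type, and Col3a1 at 2614 and 2704 CPM. Type I and III chains together came to 5872 CPM in AC8 and 5805 CPM in wild type, a ratio of 1.01 (0.99 to 1.03). Type V regulates the diameter of type I fibrils. Col5a1 stood at 456 CPM in AC8 and 591 CPM in wild type (ratio 0.77, 0.73 to 0.82), and Col5a3 at 148 CPM in AC8 and 207 CPM in wild type (0.71, 0.64 to 0.79). Col5a2 stood at 320 CPM in AC8 and 323 CPM in wild type. The UMI ratio of Col5a1 to Col5a2 was accordingly 1.43 in AC8 and 1.83 in wild type, and that of Col1a1 to Col1a2 was 1.13 (1.09 to 1.17) in AC8 and 1.01 (0.98 to 1.04) in wild type. Col27a1, a fibrillar chain first known from cartilage, stood at 33.7 CPM in AC8 and 34.0 CPM in wild type. Over all 10 fibrillar chains the sums were 6832 CPM in AC8 and 6961 CPM in wild type, a log2 ratio of -0.03 that became 0.049 with median-ratio scaling.

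The basement membrane chains had a lower summed level in AC8 fibroblast-like cells, and 2 of the 8, Col4a3 and Col15a1, were called lower. Their sum was 1840 CPM in AC8 and 2576 CPM in wild type, a ratio of 0.71 (0.69 to 0.74), and all 8 members had a ratio below 1. All 8 genes are at least 100 kb long, and 80.7% of all genes of that length had a ratio below 1. Col15a1, the multiplexin that bridges basement membrane and fibrils, made the largest part of the gap in CPM: it stood at 758 CPM in AC8 and 1171 CPM in wild type (ratio 0.65, 0.62 to 0.68) and was called lower. At an equal depth of 1000 UMIs per cell, 46.0% (43.4 to 48.5) of AC8 and 59.5% (57.2 to 61.7) of wild-type fibroblast-like cells had a Col15a1 UMI. Without thinning the shares were 72.2% in AC8 and 78.7% in wild type. In B cell-like cells, which should lack the gene, the thinned shares were 0.680% in AC8 and 2.83% in wild type, at median depths of 1170 and 1214 UMIs. The share with a Col1a1 UMI was 76.5% (74.3 to 78.6) of AC8 and 70.2% (68.1 to 72.2) of wild-type cells at 1000 UMIs. It was 90.5% of AC8 and 92.0% of wild-type cells at 2000 UMIs, where cells with fewer UMIs are left out. Depth and the set of cells thus changed together, and their parts in the change of direction were not tested. The Col15a1 shares at 2000 UMIs were 66.1% in AC8 and 78.6% in wild type.

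All 6 type IV chains had ratios below 1 in fibroblast-like cells. The ratios were nearest to 1 for the common pair: Col4a1 stood at 672 CPM in AC8 and 863 CPM in wild type (0.78, 0.74 to 0.82), and Col4a2 at 219 CPM in AC8 and 266 CPM in wild type (0.82, 0.76 to 0.90). Col4a3, a chain known for Alport disease and the kidney filter, was called lower, with 20.9 CPM (93 UMIs) in AC8 and 40.2 CPM (175 UMIs) in wild type. Its head-to-head neighbour Col4a4 stood at 68.6 CPM in AC8 and 104 CPM in wild type (0.66, 0.57 to 0.77). The X-linked pair had ratios of 0.76 (0.65 to 0.89) for Col4a5 and 0.70 (0.53 to 0.94) for Col4a6. Col18a1, whose C-terminal fragment is endostatin, had 18.9 CPM in AC8 and 21.2 CPM in wild type in these cells, which is 2.76% of its level in the highest class in AC8 and 6.75% in wild type. The UMI ratios of the head-to-head pairs had overlapping intervals in the libraries. Col4a1 to Col4a2 was 3.07 (2.86 to 3.31) in AC8 and 3.25 (3.04 to 3.48) in wild type, Col4a3 to Col4a4 was 0.305 (0.239 to 0.386) in AC8 and 0.388 (0.324 to 0.463) in wild type, and Col4a5 to Col4a6 was 3.34 (2.61 to 4.31) in AC8 and 3.09 (2.51 to 3.84) in wild type.

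Of the other chains, the type VI subunits had ratios below 1 and Col8a1 a ratio above 1. Col6a1 stood at 667 CPM in AC8 and 761 CPM in wild type (0.88, 0.83 to 0.92), Col6a2 at 790 and 1006 CPM (0.78, 0.75 to 0.82), and Col6a3 at 240 and 316 CPM (0.76, 0.70 to 0.82). Col6a6, a further type VI chain, was called lower with 47.9 CPM in AC8 and 81.6 CPM in wild type (0.59, 0.49 to 0.70). Col14a1, a chain on the fibril surface, stood at 177 CPM in AC8 and 218 CPM in wild type (0.81, 0.74 to 0.89). Col8a1, a short-chain collagen of vessel walls, stood at 286 CPM in AC8 and 261 CPM in wild type (1.10, 1.01 to 1.19). Col16a1 stood at 47.4 CPM in AC8 and 47.1 CPM in wild type, and Col8a2, the partner of Col8a1, had 33 UMIs in AC8 and 29 UMIs in wild type. The Col6a1 to Col6a2 UMI ratio was 0.845 (0.804 to 0.887) in AC8 and 0.756 (0.723 to 0.791) in wild type. The 23 other chains summed to 2294 CPM in AC8 and 2723 CPM in wild type, a ratio of 0.84 (0.82 to 0.86).

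**Figure D3:**
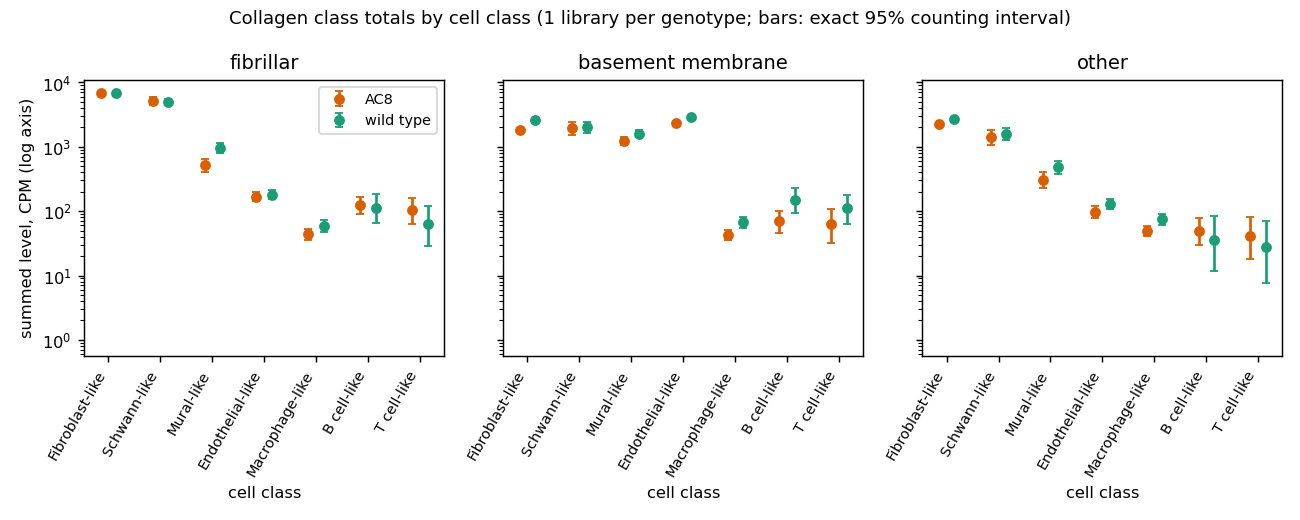
Summed CPM of fibrillar, basement membrane and other collagens in 7 cell classes (log axis; orange AC8, left of green wild type; bars, exact 95% counting interval; 1 library per genotype). In fibroblast-like cells the fibrillar sums, 6832 CPM in AC8 and 6961 CPM in wild type, nearly coincide, while the basement membrane sums, 1840 and 2576 CPM, stand apart.

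Long genes had lower ratios than short ones over the whole table, and many collagen genes are long. In fibroblast-like cells the median log2 ratio of all genes was 0.12 for genes under 10 kb of genomic length, -0.0043 from 10 to 30 kb, -0.14 from 30 to 100 kb and -0.22 from 100 kb upward. In the longest bin 80.7% of 1481 genes had a ratio below 1 and 5.06% were called lower. Of the 24 collagens, 15 lie in that bin, among them all 8 basement membrane genes and the 3 called lower, and their median was -0.35. The 4 collagens from 10 to 30 kb had a median of -0.06, and the 5 from 30 to 100 kb had -0.05. Across 10506 genes, which are not independent replicates, the log2 ratio had a rank correlation of -0.40 with genomic length and -0.46 with exonic length. The same rank correlation with genomic length was -0.31 in endothelial-like, -0.28 in mural-like and -0.38 in macrophage-like cells. Genes of at least 100 kb gave 6.21% of UMIs in AC8 and 7.79% in wild-type fibroblast-like cells.

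Each member was therefore also set against the median of all genes in its own length bin, a choice made after these values were seen. On that scale none of the 24 was past 1.5-fold in either direction. Of the 20 whose fibroblast level was at least 20% of that in the highest class, 14 lay below the median of their bin. The bins were not matched for level, and the added 10 CPM draws their low-level genes toward 0 more than abundant collagens. The part of level in these places was not tested. Col4a3 lay below it by a log2 value of -0.48, Col6a6 by -0.44, Col15a1 by -0.40 and Col6a2 by -0.34. Col4a1 lay at -0.14 and Col4a2 at -0.05. Against bins of exon length, Col15a1 lay at -0.54, Col6a2 at -0.12 and Col4a2 at -0.19, and Col4a3 and Col6a6 at -0.47 and -0.44. Col8a1 lay above its bin at 0.35, Col5a2 at 0.20, Col1a1 at 0.15, Col1a2 at 0.13 and Col3a1 at 0.10. The part of length, depth and RNA quality in the basement membrane values was not tested beyond this.

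**Figure D4:**
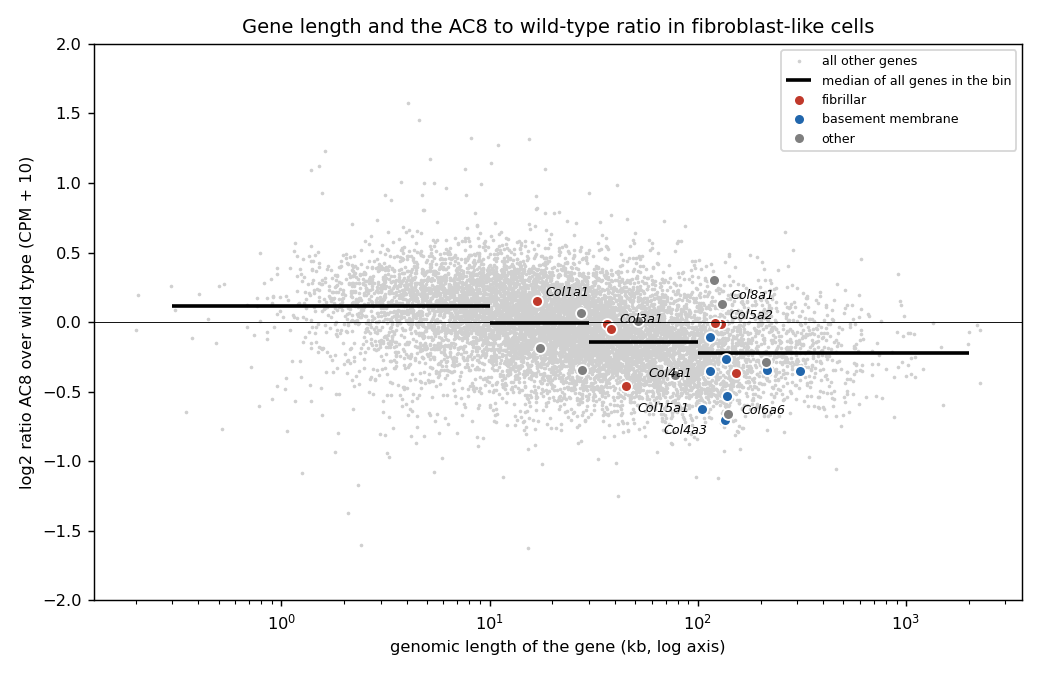
Log2 ratio of AC8 over wild type (10 CPM added) against genomic length for 10506 genes in fibroblast-like cells (grey dots; log axis for length; black bars, median of all genes in each length bin; red fibrillar, blue basement membrane and larger grey other collagens). The medians step down from 0.12 under 10 kb to -0.22 from 100 kb upward, and Col15a1, Col4a3 and Col6a6 lie lowest among the collagens.

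Fibroblast-like cells fell into 4 clusters, and their collagen ratios are given side by side, since the differences between clusters were not tested. The basement membrane ratio was 0.69 (0.66 to 0.72) in the cluster led by Dcn and Clec3b, 0.76 (0.71 to 0.80) in that led by Gsn and Fbln1 and 0.83 (0.78 to 0.88) in that led by Mfap5 and Pi16. It was 1.08 (0.96 to 1.20) in a small cluster led by Gfpt2, with 66 AC8 and 102 wild-type cells. The fibrillar ratio was 1.06 (1.04 to 1.09), 0.87 (0.84 to 0.89), 1.04 (1.01 to 1.07) and 1.12 (1.04 to 1.21) in the same order of clusters. The cluster led by Dcn and Clec3b, which had the highest basement membrane level of the 3 large ones in both libraries, held 505 AC8 and 787 wild-type cells. With the clusters weighted as in wild type, the basement membrane log2 ratio was -0.39, against -0.49 without weighting. The Gfpt2 cluster had the highest collagen level as a share of its UMIs, 19180 CPM in AC8 and 17910 CPM in wild type. Its cells were shallow, with medians of 1422 UMIs in AC8 and 1557 in wild type. The cluster stood apart in both libraries by its RNA. Genes of at least 100 kb gave 16.1% of its UMIs in AC8 and 16.6% in wild type. Mitochondrial and ribosomal genes gave 4.77% in AC8 and 4.18% in wild type, against 12.8% and 12.7% over all fibroblast-like cells.

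Single chains followed the clusters unevenly. Col1a1 had a ratio above 1 in all 4 clusters, between 1.05 and 1.22. Col15a1 had ratios of 0.62 (0.58 to 0.67), 0.68 (0.63 to 0.74) and 0.71 (0.65 to 0.78) in the 3 large clusters and 1.02 (0.84 to 1.23) in the Gfpt2 cluster. Col6a6 had its lowest ratio, 0.39 (0.28 to 0.54), in the cluster led by Gsn and Fbln1, with 33.1 CPM in AC8 and 84.9 CPM in wild type. Its level was lowest in the Mfap5 and Pi16 cluster, with 12.7 CPM in AC8 and 15.2 CPM in wild type, while in the cluster led by Dcn and Clec3b it stood at 88.4 and 115 CPM. In the Gsn and Fbln1 cluster Col8a1 stood at 165 CPM in AC8 and 99.0 CPM in wild type (1.67, 1.35 to 2.06), whereas its ratio was 0.92 (0.80 to 1.06) in the Dcn and Clec3b cluster.

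Values of other kinds moved with the fibroblast comparison. Of 20 dissociation stress genes, 4 were lower in AC8 fibroblast-like cells (Fosb, Egr1, Hspa1a and Btg2) and none higher, against 2.88% of all genes lower and 0.811% higher, with summed levels of 42760 CPM in AC8 and 49450 CPM in wild type. Of 13 mitochondrially encoded genes 3 were lower (median log2 ratio -0.45), and of 88 ribosomal protein genes 10 were lower and none higher. Mitochondrial genes together gave 1.67% of UMIs in AC8 and 1.79% in wild-type fibroblast-like cells, a smaller gap than that median. The part of these and of depth in the collagen values was not tested. The 8 cardiomyocyte markers summed to 17.5 CPM in AC8 and 19.1 CPM in wild-type fibroblast-like cells.

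Endothelial-like cells had 9 members to compare. Of these, 1 was called higher and none lower, against 4.63% of all 7192 genes higher and 5.3% lower. Col4a1 stood at 1403 CPM in AC8 and 1850 CPM in wild type (0.76, 0.70 to 0.82), and Col4a2 at 757 CPM in AC8 and 861 CPM in wild type (0.88, 0.79 to 0.98). Both were lower in AC8 by less than 1.5-fold, as in fibroblast-like cells. Against genes of their length bin, Col4a1 lay at -0.19 and Col4a2 at 0.03 in log2 by genomic length, and at -0.23 and -0.15 by exon length, so the sign for Col4a2 depended on the length used. The basement membrane sum was 2316 CPM in AC8 and 2883 CPM in wild type, a ratio of 0.80 (0.76 to 0.85), and it was 0.85 (0.79 to 0.92) and 0.81 (0.72 to 0.90) in the 2 large clusters and 1.22 in a cluster of 30 AC8 and 27 wild-type cells led by Cyyr1. At an equal depth of 1000 UMIs, 63.7% (59.6 to 67.6) of AC8 and 75.2% (71.5 to 78.6) of wild-type cells had a Col4a1 UMI, against 3.40% and 8.49% in B cell-like cells. Without thinning the endothelial shares were 74.8% in AC8 and 83.5% in wild type. The Col4a1 to Col4a2 UMI ratio was 1.85 in AC8 and 2.15 in wild type, below the fibroblast ratios of 3.07 and 3.25 in the same libraries. Stress genes went the other way from fibroblast-like cells here, with 4 of 20 higher in AC8 (Ier2, Ier3, Socs3 and Nr4a1).

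Fibrillar UMIs were few in endothelial-like cells, at 168 CPM in AC8 and 181 CPM in wild type. Col1a1, the member called higher, had 41 UMIs in AC8 and 22 UMIs in wild type (ratio 1.84, 1.07 to 3.25), at most 2.67% of its level in the highest class. Its ratio was 5.85 (2.15 to 19.9) in the cluster led by Fabp4 and 2.44 (0.88 to 8.36) in that led by Depp1, each on under 30 UMIs. The fibrillar value turned on 27 wild-type cells of a small cluster led by Cyyr1 and Cdh5. There, 7 wild-type cells held 53 fibrillar UMIs and fibroblast markers summed to 3319 CPM, while the 30 AC8 cells of the cluster held 2 fibrillar UMIs and 488 CPM of fibroblast markers. Without this cluster the log2 ratio of the fibrillar sum was 0.46, against -0.11 with it. The part of fibroblast RNA in these values was not tested.

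Mural-like cells had few cells and wide intervals. At a Leiden resolution of 1.6 they divided into a cluster led by Rgs5 and Kcnj8, with 11 AC8 and 32 wild-type cells, and one led by Acta2 and Myh11, with 67 AC8 and 49 wild-type cells. The makeup of the class thus differed between the libraries, and its part in the values below was not tested. Of 8 members compared, 3 were called lower and none higher, against 17.1% of all 2099 genes lower and 9.91% higher. Of genes of at least 100 kb, 29.7% were lower, and of those from 30 to 100 kb, 23.0%. Col4a2 and Col5a2 lie in the first of these bins and Col3a1 in the second. Col4a1 stood at 687 CPM in AC8 and 906 CPM in wild type (0.76, 0.59 to 0.98). Col4a2 was called lower, with 219 CPM (36 UMIs) in AC8 and 361 CPM (55 UMIs) in wild type (0.61, 0.39 to 0.94). Col5a2 was called lower with 8 UMIs in AC8 and 22 UMIs in wild type, and Col3a1 with 23 UMIs in AC8 and 44 UMIs in wild type. Col18a1 stood at 176 CPM in AC8 and 151 CPM in wild type (1.17, 0.65 to 2.11). Against genes of their genomic length bin, Col4a1 lay at -0.13, Col4a2 at -0.43, Col5a2 at -1.13 and Col18a1 at 0.47 in log2. The fibrillar sum was 516 CPM in AC8 and 966 CPM in wild type (0.53, 0.40 to 0.70), and that of type V was 66.8 CPM (11 UMIs) in AC8 and 309 CPM (47 UMIs) in wild type. Fibroblast markers summed to 851 CPM in AC8 and 1143 CPM in wild-type mural-like cells, the 10 endothelial markers to 3032 CPM in AC8 and 6667 CPM in wild type, and the 8 cardiomyocyte markers to 413 CPM in AC8 and 841 CPM in wild type. Of 20 stress genes, 4 were higher in AC8 (Junb, Ier3, Socs3 and Nr4a1). The part of these in the mural values was not tested. With cells of at least 2000 UMIs only, 34 AC8 and 25 wild-type cells were left and none of the members was called lower. Col4a2 then had a log2 ratio of -0.48, and Col5a2 fell under the minimum of 30 UMIs, while Col4a1 was at 0.025.

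Schwann-like cells, glia of the cardiac nerves, were too few to compare (22 AC8 and 36 wild-type cells), and their collagen levels are given per library. Col3a1 stood at 2447 CPM (1975 to 2998) in AC8 and 2454 CPM (2066 to 2895) in wild type, 93.6% and 90.8% of the fibroblast level. Col1a1 did not share this, with 27 UMIs in AC8 and 37 UMIs in wild type. The Col1a1 to Col3a1 UMI ratio was 0.290 (0.182 to 0.450) in AC8 and 0.262 (0.178 to 0.379) in wild type. In fibroblast-like cells it was 0.661 in AC8 and 0.576 in wild type. Fibroblast markers summed to 2868 CPM in AC8 and 4543 CPM in wild-type Schwann-like cells, against 63640 and 56460 CPM in fibroblast-like cells, and 5 of the 10 markers in AC8 and 1 in wild type were at 0. Macrophage markers in Schwann-like cells summed to 263 CPM in AC8 and 2037 CPM in wild type, and endothelial markers to 158 and 1549 CPM. The part of RNA from other cells in the Schwann-like collagen levels was not tested. All collagens summed to 8551 CPM in AC8 and 8599 CPM in wild type. Col18a1 stood at 684 CPM (26 UMIs) in AC8 and 313 CPM (18 UMIs) in wild type, above fibroblast-like, mural-like and endothelial-like cells in both libraries. Col16a1, a chain on fibrils and near basement membranes, stood at 342 CPM (13 UMIs) in AC8 and 505 CPM (29 UMIs) in wild type, against 47.4 and 47.1 CPM in fibroblast-like cells.

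In macrophage-like cells most chains stood far under their fibroblast level, and Col14a1 did so least among those with at least 30 UMIs. Over all members the sum was 135 CPM in AC8 and 201 CPM in wild type. Col1a1, Col1a2 and Col3a1 stood at 0.714%, 0.503% and 0.590% of their fibroblast levels in AC8, and at 0.566%, 0.667% and 0.653% in wild type. Col14a1 stood at 18.5% (14.6 to 23.2) of its fibroblast level in AC8 and 27.1% (21.2 to 34.0) in wild type. Col27a1, on few UMIs, had 4 UMIs in AC8, or 4.57% (1.23 to 11.9) of its fibroblast level, and 15 UMIs in wild type, or 32.4% (17.7 to 55.2). The Col14a1 to Col3a1 UMI ratio was 2.12 (1.44 to 3.18) in AC8 and 3.33 (2.09 to 5.50) in wild-type macrophage-like cells, against 0.0676 and 0.0804 in fibroblast-like cells. Fibroblast markers summed to 339 CPM in AC8 and 357 CPM in wild-type macrophage-like cells. In endothelial-like cells the same ratio was 0.0769 in AC8 and 0.102 in wild type.

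**Figure D5:**
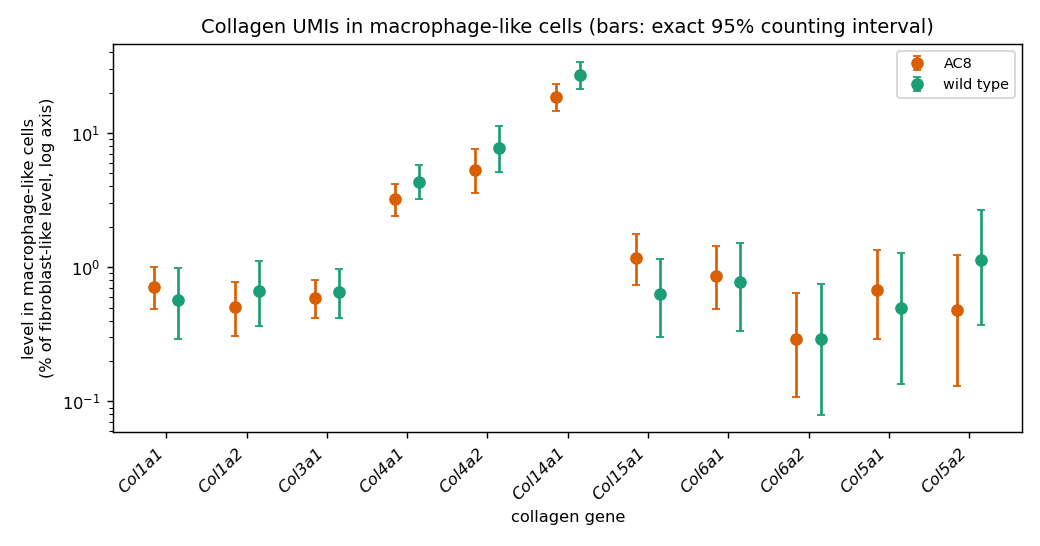
Level of 11 collagens in macrophage-like cells as a percent of the fibroblast-like level of the same library (log axis; orange AC8, left of green wild type; bars, exact 95% counting interval). Col14a1 stands at 18.5% in AC8 and 27.1% in wild type, while Col1a1, Col1a2 and Col3a1 stand under 1% in both.

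Col14a1 UMIs were found in a minority of macrophage-like cells. At an equal depth of 1000 UMIs, 4.49% (3.11 to 6.25) of AC8 and 6.20% (4.40 to 8.44) of wild-type macrophage-like cells had one, and 9.66% and 10.4% had one without thinning. The thinned share in B cell-like cells was 0.340% in AC8, and 0 of 106 wild-type cells had one. The second allows a share of up to about 2.83%, an approximate limit and not an exact interval. Of the 7 members compared in macrophage-like cells, 2 were called lower and none higher, against 7.09% of all 8379 genes lower and 5.44% higher. Col14a1 was one, with 32.8 CPM (85 UMIs) in AC8 and 58.8 CPM (80 UMIs) in wild type. The other was Col4a1, with 21.6 CPM in AC8 and 37.5 CPM in wild type, at most 2.03% of its level in the highest class. The Col14a1 ratios of the 2 clusters large enough to compare lay on either side of 1, a difference that was not tested. In the cluster led by C1qa and Ms4a7 it stood at 47.4 CPM (37 UMIs) in AC8 and 101 CPM (63 UMIs) in wild type (0.47, 0.30 to 0.72). In the cluster led by F13a1 and Lyve1 it stood at 34.8 CPM (29 UMIs) in AC8 and 24.9 CPM (13 UMIs) in wild type (1.40, 0.70 to 2.93). A cluster led by Spp1 and Trem2 held 150 AC8 and 14 wild-type cells, and in it Col14a1 stood at 17.6 CPM (15 UMIs) in AC8. Against genes of its length bin the log2 value of Col14a1 was -0.41 for the whole class. Of 20 stress genes 5 and of 13 mitochondrially encoded genes 7 were lower in AC8 macrophage-like cells, the second with a median log2 ratio of -0.73. Mitochondrial genes gave 1.61% of UMIs in AC8 and 2.06% in wild type, and genes of at least 100 kb gave 5.25% and 6.79%. The part of these in the macrophage values was not tested. In B cell-like and T cell-like cells 0 members reached 30 UMIs, while 10.2% of all B cell-like genes were higher and 11.6% lower, and 9.75% of all T cell-like genes were higher and 12.2% lower.

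The enzymes and partners that build and bind collagens were described from a list of 55 genes. In fibroblast-like cells 46 were measured, of which none was called higher and 3 lower, against 0.811% of all genes higher and 2.88% lower. Their median log2 ratio was -0.10, against -0.05 over all genes. Loxl2, which cross-links type IV and fibrillar collagens, stood at 116 CPM in AC8 and 196 CPM in wild type (0.59, 0.53 to 0.66). Itgb1, the beta subunit of the collagen-binding integrins, stood at 324 CPM in AC8 and 517 CPM in wild type (0.63, 0.59 to 0.67). Fap, a protease of the fibroblast surface, stood at 13.7 CPM (61 UMIs) in AC8 and 26.7 CPM (116 UMIs) in wild type (0.51, 0.37 to 0.71). The ratio was below 1 for 28 of the 46. Other members had ratios above 1 that stayed within the 1.5-fold cut. Among these, Pcolce2, of the propeptide cleavage group, stood just inside it at 492 CPM in AC8 and 328 CPM in wild type. Pcolce, of the same group, stood at 1521 CPM in AC8 and 1076 CPM in wild type. Ppib, of the chain-modifying group, stood at 933 CPM in AC8 and 675 CPM in wild type. By group, the medians were 0.09 over 15 chain-modifying enzymes, 0.19 over 7 genes of propeptide cleavage, -0.32 over 8 genes of chaperoning and export, -0.32 over 5 cross-linking enzymes and -0.29 over 7 receptors, whose ratios were all below 1, as were those of 57.1% of all genes. In endothelial-like cells 2 of 23 were lower, against 5.3% of all genes. Mia3, which loads procollagen into export vesicles, stood at 57.4 CPM in AC8 and 110 CPM in wild type. Colgalt2, a collagen galactosyltransferase, had 19 UMIs in AC8 and 33 UMIs in wild type (0.57, 0.31 to 1.03, an interval that holds 1). In mural-like cells 4 of 11 were lower, against 17.1% of all genes. Among them Itga1, the alpha subunit of a type IV collagen receptor, stood at 200 CPM in AC8 and 565 CPM in wild type (0.35, 0.23 to 0.54), and Mia3 at 66.8 CPM in AC8 and 158 CPM in wild type. On few UMIs, P4ha1, a prolyl hydroxylase, had 13 UMIs in AC8 and 21 UMIs in wild type. Mia2, an export partner of Mia3, likewise had only 12 UMIs in AC8 and 18 UMIs in wild type.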

How the data were processed

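Each deposited matrix holds raw UMI counts that the authors obtained from Cell Ranger, per the labels' protocols, on mm10, per the submitters' processing notes. The Cell Ranger version and any filter on cells are not given in the sources used here. Cells under 1000 UMIs, under 500 genes or over 10% mitochondrial UMIs were dropped, and 145 AC8 and 173 wild-type cells were removed as the top doublet scores at a rate of 0.8% per 1000 cells. From 2000 variable genes without collagens, 30 principal components and 15 neighbours, Leiden clustering at resolution 1 gave 20 clusters, and 1 stayed unnamed. A name needed at least 3 of its markers in at least 10% of cells. Such classes are called like their type.

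Log2 ratios have 10 CPM added to both levels, and folds and intervals are of plain CPM (Poisson, conditional binomial and Clopper-Pearson). Classes with at least 50 cells in each library were compared. There is no test, since each genotype has 1 library. Members past 1.5-fold are named, and others where their level was at least 20% of that in the highest class, with some named after their values were seen. Members and lists were chosen with earlier results of these data known. Gene lengths are from GENCODE vM21 on GRCm38, matched by symbol for 22039 genes (98.2%). The ratio step was tested on simulated data. Clustering used leidenalg 0.10.2 on igraph 0.11.9 and scikit-learn 1.9.0. Intervals came from scipy 1.17.1, tables from pandas 2.3.3 and numpy 2.4.6, and plots from matplotlib 3.10.9, all under Python 3.11.15.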

Additional observations from a re-analysis of the deposited data

How the results depend on the processing

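Of 85 values of class totals under the alternatives, 72 stayed within the counting interval of the reported value, as did 13 of 16 values of the type IV level and 400 of 492 values of single members; 77 of 110 counts of called members stayed within 1.5 times the reported count. All 12 shares of cells with a UMI moved with the depth per cell, and at 2000 UMIs the shallower cells were also left out. The cause of the moves was not tested, apart from those that follow from fewer genes or cells. The share of all genes called was not computed under the alternatives. The counts below thus describe the settings and are no result about collagens. In fibroblast-like cells the count of members lower was 3, and it was 0 at 2-fold, 1, 5, 1 and 0 within the clusters led by Dcn, Gsn, Mfap5 and Gfpt2, and 0 against the gene length or the exon length bin; the count higher was 0, and 1 within each of the clusters led by Gsn and Mfap5. The fibrillar log2 ratio there, -0.03, was -0.084 for cells of at least 2000 UMIs, 0.049 with median-ratio scaling and -0.00086 with clusters weighted as in wild type, so its sign depended on the scaling. The basement membrane value, -0.49, was -0.41 with median-ratio scaling, -0.38 over type IV only and -0.39 with weighted clusters. That of the other chains, -0.25, was -0.29, -0.17 and -0.21 for deep cells, median-ratio scaling and weighted clusters. In endothelial-like cells the count lower, 0, was 1 with doublets kept and 2 with no minimum of UMIs; the count higher, 1, was 0 with all deposited cells, deep cells, doublets kept, at least 100 UMIs, 2-fold and within either large cluster, where Col1a1 fell under 30 UMIs at a higher ratio than in the class. The fibrillar value, -0.11, was 0.46 without the cluster led by Cyyr1, and the basement membrane value, -0.32, was -0.18 with all deposited cells and -0.21 with weighted clusters. In mural-like cells the count lower, 3, was 7 with all deposited cells, 0 for deep cells, 6 with doublets kept, 9 with no minimum, 0 at 100 UMIs and 1 at 2-fold, and the fibrillar value, -0.90, was -0.48 for deep cells. In macrophage-like cells the count lower, 2, was 1 with all deposited cells, after thinning, with median-ratio scaling and within the cluster led by C1qa, and 0 for the mean over cells, at 2-fold, within the cluster led by F13a1 and against either length bin. The type IV log2 ratio of endothelial over fibroblast-like cells was 1.13 in AC8 with all deposited cells, and 0.90 in wild type both for the mean over cells and after thinning. Col15a1 in the Gfpt2 cluster was at 0.022 and Col14a1 in the F13a1 cluster at 0.36, each the reverse of its called class value. Members that were not called also changed sign in some setting, among them Col6a3 (highest value 0.51), Col4a1 (0.22), Col4a2 (0.13) and Col8a1 (lowest value -0.48) in fibroblast-like cells, Col4a2 in endothelial-like cells (0.026) and Col18a1 in mural-like cells (-0.16). The length bins, weighted clusters and cluster removals were chosen after seeing the data. No paired analysis was possible because each genotype has 1 library, and no replicate could be left out for the same reason. In mural-like cells 33 of the 41 members had under 30 UMIs.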

Other observations

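In macrophage-like cells, 21 genes of the collagen pathway list were measured, and those past 1.5-fold are given here although the naming rule did not cover this class. They were 1 higher and 3 lower, against 5.44% of all genes higher and 7.09% lower. The class holds 150 AC8 and 14 wild-type cells of the cluster led by Spp1 and Trem2, so its sums mix clusters in different shares in each library. Mmp14, a membrane collagenase, stood at 40.1 CPM (104 UMIs) in AC8 and 3.68 CPM (5 UMIs) in wild type, and Mmp13, a secreted collagenase, at 41.2 CPM (107 UMIs) in AC8 and 151 CPM (205 UMIs) in wild type. P3h2, a prolyl hydroxylase, stood at 20.8 CPM in AC8 and 45.6 CPM in wild type, and Mia3 at 51.6 CPM in AC8 and 94.9 CPM in wild type.

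Col12a1, a chain of the fibril surface, was under 20% of its highest class in fibroblast-like cells, with 16.2 CPM in AC8 and 11.3 CPM in wild type. In the fibroblast cluster led by Mfap5 and Pi16 it had 44 UMIs (35.0 CPM) in AC8 and 19 UMIs (16.9 CPM) in wild type, a ratio of 2.07 (1.18 to 3.75).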
